A study of Mus musculus with 9 samples.

Results

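The genes of the proteasome, the complex that breaks down ubiquitin-tagged proteins, were followed through 3 states of cultured mouse BM macrophages. The members were the genes whose symbol starts with Psma to Psmg and a number, a rule that matched 51 of the 13526 genes in the deposited table. Psmb8 and Psmb9 were left out, and the 49 genes that remained were sorted by role: 8 alpha ring genes, 4 structural and 3 constitutive catalytic beta ring genes, 2 tissue-specific catalytic genes, 6 ATPases and 3 other subunits of the base, 8 lid subunits, 5 activators, 1 inhibitor, 3 assembly chaperones of the base, 4 assembly chaperones of the core, and 2 genes that share the name pattern but encode no subunit. All 49 passed the filter on low values and were tested.

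In the cell, the core particle is a barrel of stacked rings. The outer alpha rings form the gate, and the inner beta rings carry the peptidase sites, which lie in Psmb5 (chymotrypsin-like activity), Psmb6 (caspase-like) and Psmb7 (trypsin-like). The regulatory particle caps the barrel: its lid removes ubiquitin chains, and its base holds an ATPase ring that unfolds substrates and threads them inside. Interferon-induced subunits (Psmb8, Psmb9, Psmb10) can replace the constitutive catalytic subunits in newly built cores, and PA28, made from Psme1 and Psme2, opens the gate without ATP and favors the release of peptides. In osteoclast precursors the proteasome is known for degrading the NF-κB inhibitor IκBα and for processing p100, both downstream of RANKL.

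The macrophages came from the BM of C57BL/6 mice aged 8 weeks and grew for 3 days in 10 ng/mL M-CSF, a macrophage survival factor. The 3 groups, each of 3 libraries, were macrophages given RANKL, the cytokine that drives osteoclast formation, plus rmCst6 (recombinant mouse cystatin M/E, a cysteine protease inhibitor) for 48 hours, macrophages given RANKL alone for 48 hours, and control macrophages without RANKL. The dose of rmCst6 in these cultures and the time at which the control macrophages were collected are not stated for these libraries, so time in culture and treatment cannot be told apart in differences from control. The labels do not say whether the libraries of a group came from separate animals or cultures, and p-values then measure the spread between these libraries only.

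Expression is given as the authors' log2 normalized value, a scale on which 1 unit is a 2-fold difference. Differences were tested with limma over the 12932 genes that passed the filter, and a gene rose or fell where the Benjamini-Hochberg adjusted p was under 0.05. The osteoclast markers matched the labels: 8 of 8 were higher in RANKL than in control libraries and 8 of 8 were lower with rmCst6 than with RANKL alone, with summed normalized values of 8700.42 to 11665.2 with RANKL plus rmCst6, 491004 to 638123 with RANKL and 1786.43 to 1878.66 in control. Calcr and Oscar were listed at 0 in at least 1 library. The 8 macrophage markers summed to 578651 to 626154 with RANKL plus rmCst6, 454317 to 499707 with RANKL and 959268 to 1130650 in control. Lyz2 was the largest term of that sum in each group, and the markers did not move together: with rmCst6 over RANKL alone 4 rose, among them Fcgr1 (log2 6.48) and Adgre1 (log2 2.45), Csf1r fell (log2 -1.65), and 3, Lyz2 included, missed the threshold. With RANKL over control 7 of the 8 fell. The 12 neutrophil markers summed to 51594.5 to 60080.8 with RANKL plus rmCst6, 6271.94 to 10465.9 with RANKL and 18389.3 to 25439.3 in control. Most markers of 3 other cell types also rose with rmCst6 over RANKL alone. The 4 megakaryocyte markers tested all rose, and that list summed to 6379.03 to 8726.26 with RANKL plus rmCst6, 679.728 to 973.279 with RANKL and 8152.82 to 8952.51 in control. The 3 endothelial markers tested all rose, and summed to 3280.58 to 3795 with RANKL plus rmCst6, 331.66 to 362.758 with RANKL and 128.018 to 202.458 in control. Of 7 stromal markers 5 rose, with sums of 3878.09 to 6667.3 with RANKL plus rmCst6, 2990.45 to 3623.28 with RANKL and 5868.03 to 9846.87 in control. The part of these marker shifts in the results on the proteasome was not tested. In bulk RNA, fewer cells of a type and less RNA per cell cannot be told apart.

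Most proteasome genes were higher with RANKL than in control. Of 49 genes, 45 passed the test in either direction, as did 72.5% of all genes: 41 rose, against 36.6% of all genes tested, and 4 fell, against 35.9%. The genes that rose took in all 14 constitutive core subunits, the testis form Psma8, and 16 of the 17 base and lid subunits. The genes that fell were Psme1, Psme2b, Psmg4 and Psmb11. The median log2 fold change of the members was 0.53, against -0.01 over all genes. Most of the shifts were modest: 6 genes rose at least 2-fold, against 13.4% of all genes, and 1 fell at least 2-fold, against 12.9%. The libraries of RANKL and control did not overlap in 41 members that were higher (37.8% of all genes) and in 4 that were lower (37.6%).

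Adding rmCst6 to RANKL moved the members in both directions. Relative to RANKL alone, 39 passed the test in either direction, as did 72.7% of all genes. Of these, 26 rose, against 34.8% of all genes, and 13 fell, against 38% of all genes. The median log2 fold change of the 49 members was 0.17, against -0.02 over all genes. Psmb10, Psme1 and Psme2b rose at least 2-fold, which 12.8% of all genes did, and 0 members fell at least 2-fold, which 15% of all genes did. The libraries did not overlap in 27 members that were higher (36.4% of all genes) and in 13 that were lower (39.4%). Between RANKL plus rmCst6 and control, 45 members passed the test, as did 71.7% of all genes. All 45 were higher with RANKL plus rmCst6, against 36.7% of all genes, and 0 were lower, against 35.1%. The libraries did not overlap in 46 members that were higher (38.7% of all genes) and 0 that were lower (36.8%). In that comparison 10 members rose at least 2-fold, against 12.5% of all genes, and the median was 0.71, against 0.01. The comparisons share libraries, so their values are set side by side and not counted against each other. The moderated F-test of limma across the 3 groups called all 49 members, with a highest adjusted p of 0.0351, and 11476 of the 12932 genes.

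**Figure D1:**
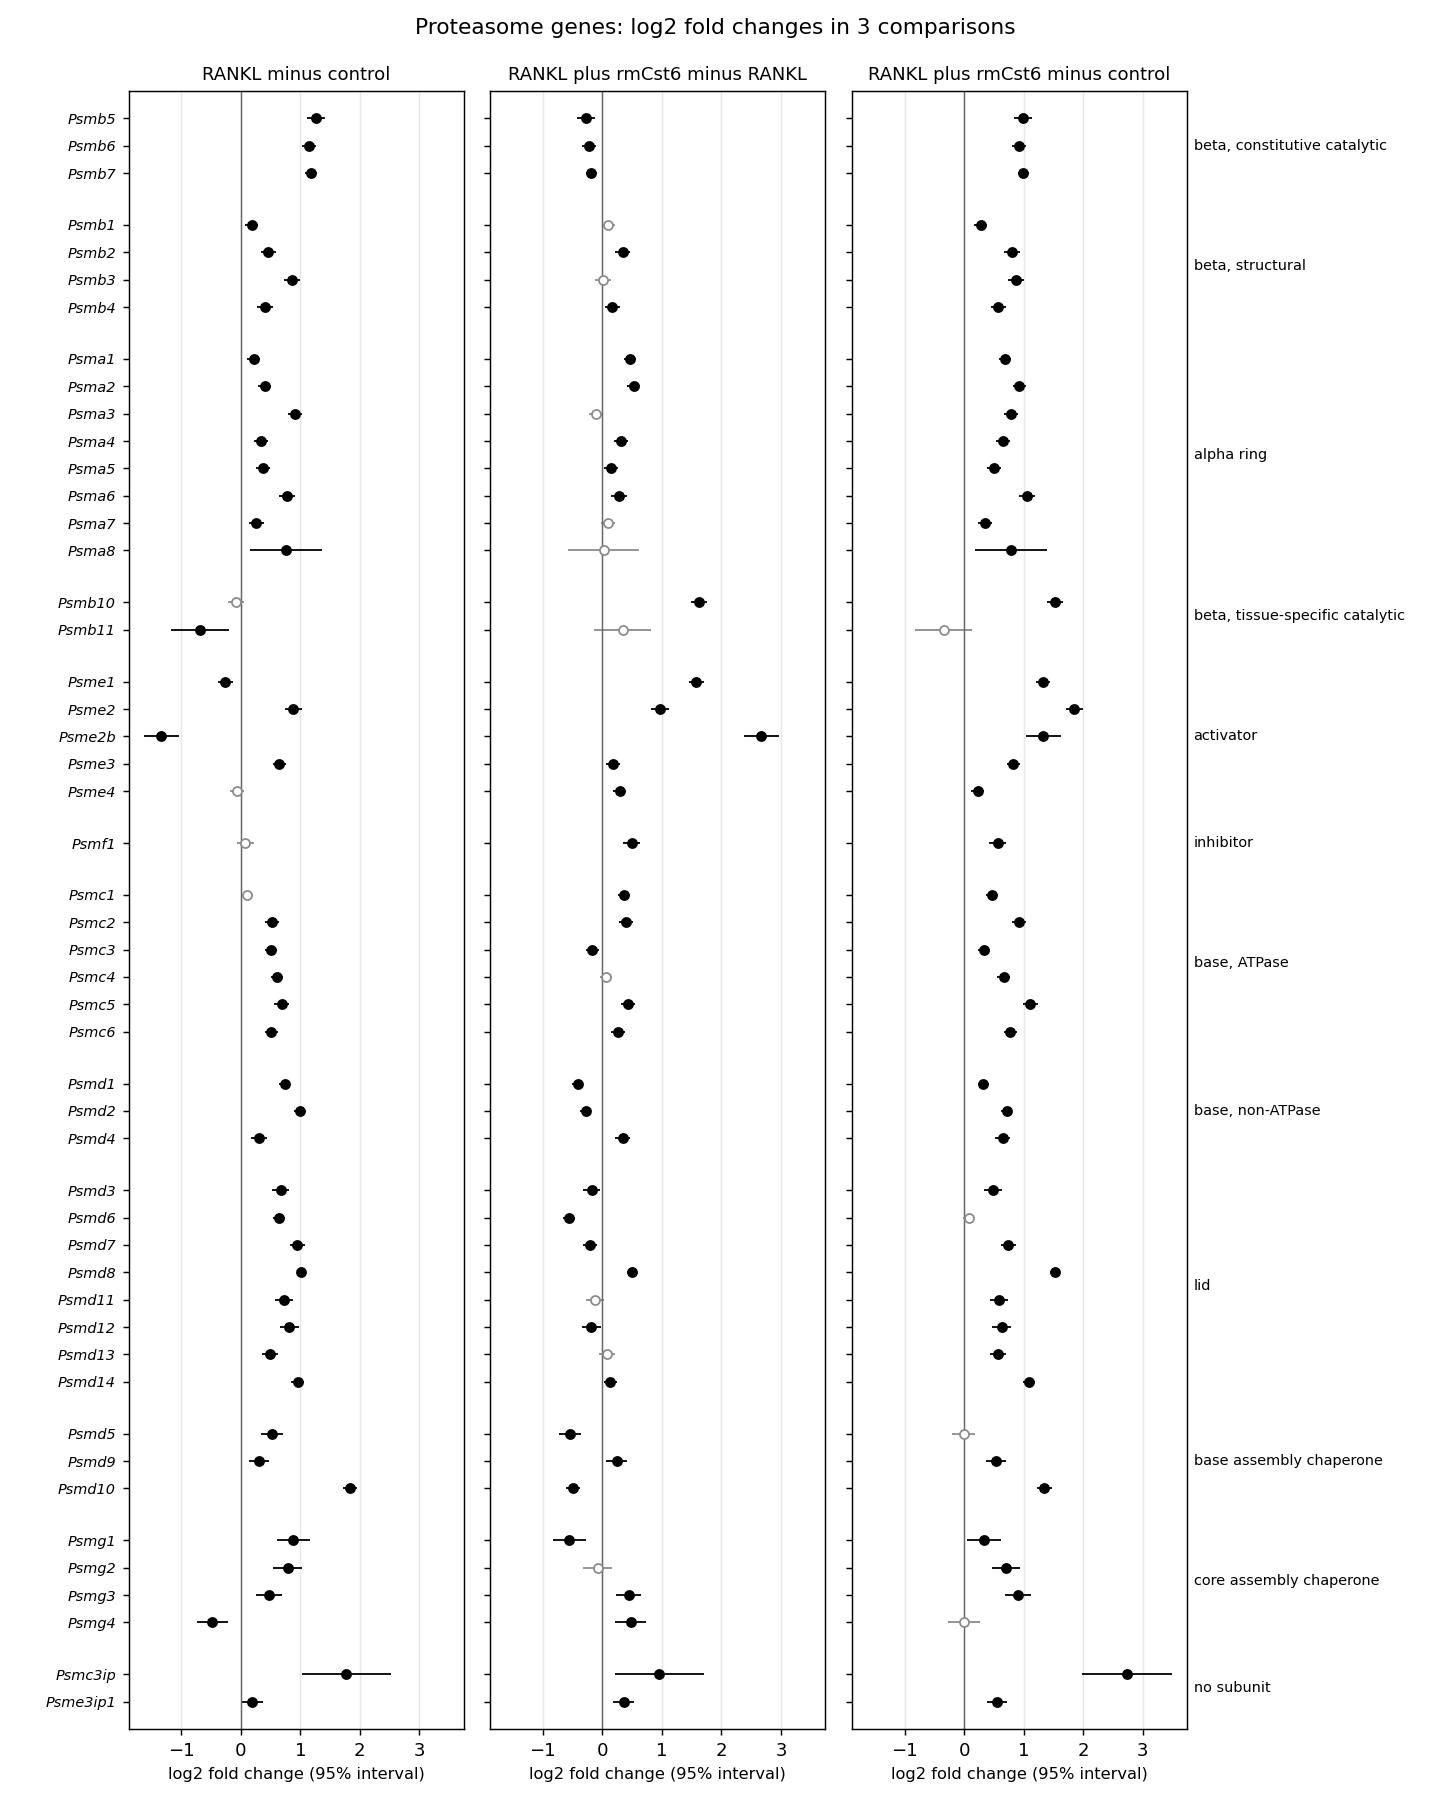
Log2 fold changes of the 49 proteasome genes, grouped by role, for RANKL minus control (left), RANKL plus rmCst6 minus RANKL (middle) and RANKL plus rmCst6 minus control (right). Points are limma estimates from 9 libraries and bars their 95% intervals, and filled points passed the test. In the left panel 41 points passed to the right of 0, and in the middle panel 26 passed to the right and 13 to the left.

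The constitutive catalytic subunits had the largest rises with RANKL among the core subunits, and they fell with rmCst6. Psmb5, which carries the chymotrypsin-like site targeted by bortezomib, had log2 values of 11.51, 11.50 and 11.69 with RANKL plus rmCst6, 11.96, 11.80 and 11.78 with RANKL, and 10.63, 10.64 and 10.46 in control. The RANKL libraries were the highest and the control libraries the lowest, with no overlap between any of the groups. Psmb5 rose 2.41-fold with RANKL (log2 fold change 1.27, SE 0.071, limma adjusted p = 6.40e-09) and was 1.21 times lower with rmCst6 than with RANKL alone (log2 fold change -0.28, limma adjusted p = 0.00344).

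Psmb6, with the caspase-like site, had 11.78, 11.80 and 11.93 with RANKL plus rmCst6, 12.13, 12.03 and 12.01 with RANKL, and 10.85, 10.98 and 10.90 in control. Psmb7, with the trypsin-like site, had 11.57, 11.63 and 11.65 with RANKL plus rmCst6, 11.82, 11.81 and 11.78 with RANKL, and 10.62, 10.63 and 10.62 in control. Both kept the order seen for Psmb5, without overlap. With RANKL, Psmb6 rose 2.21-fold (log2 1.15, SE 0.056, limma adjusted p = 1.82e-09) and Psmb7 rose 2.27-fold (log2 1.18, SE 0.043, limma adjusted p = 1.18e-10). With rmCst6 added, the log2 value of Psmb6 fell by 0.22 (limma adjusted p = 0.00336) and that of Psmb7 fell by 0.19 (limma adjusted p = 0.00164). All 3 genes stayed above control with RANKL plus rmCst6, by 0.99, 0.92 and 0.99 on the log2 scale for Psmb5, Psmb6 and Psmb7. Psmb7 lies on the minus strand at chr2:38588036-38644087 (GRCm38, GENCODE M21), and its exons overlap those of Nek6 on the opposite strand. The libraries were stranded, but whether strand was used to assign reads is not stated.

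Promoter windows were read to see whether the catalytic genes hold the core of the antioxidant response element, TGACNNNGC, the site bound by Nrf1 (Nfe2l1), a transcription factor known for raising proteasome genes when proteasome activity is low. The 2 windows below, from RefSeq on GRCm38.p6, run from 120 bases before the transcript start to 30 after it, 5′ to 3′ on the strand of the gene. The match is in capitals. Psmb5 lies on the minus strand at chr14:54617966-54618115 and Psmb6 on the plus strand at chr11:70525237-70525386.
Psmb5: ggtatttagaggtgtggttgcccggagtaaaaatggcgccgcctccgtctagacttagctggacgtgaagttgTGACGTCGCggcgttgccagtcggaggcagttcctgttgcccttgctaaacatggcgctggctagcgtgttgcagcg
Psmb6: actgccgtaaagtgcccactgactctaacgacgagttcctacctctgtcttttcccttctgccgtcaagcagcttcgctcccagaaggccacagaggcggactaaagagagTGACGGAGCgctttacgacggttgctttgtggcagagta
The match begins 47 bases before the start in Psmb5 and 9 bases before it in Psmb6. No window was found for Psmb7, so that gene was not searched. Over windows of 250 bases before to 50 after the start, searched on both strands, 6 of the 45 windows of 41 members held this core (13.3%), against 12.4% of 32851 windows of all genes. The other members with a match were Psmc6, Psmd12, Psmd9 and Psme4, and Psme4 did not rise with RANKL. The share among members was near that of all promoters, and a match is a description of the sequence only.

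The alpha ring and the structural beta subunits rose less with RANKL, and none of them fell with rmCst6. All 8 alpha ring genes rose with RANKL, against 36.6% of all genes. Their log2 fold changes were 0.22 (Psma1) to 0.91 (Psma3), with a median of 0.38. With rmCst6 added, 5 of them rose further over RANKL alone, against 34.8% of all genes: Psma1, Psma2, Psma4, Psma5 and Psma6. The other 3, Psma3, Psma7 and Psma8, did not pass the test. Psma2, an alpha ring subunit, had 12.06, 12.21 and 12.19 with RANKL plus rmCst6, 11.60, 11.69 and 11.60 with RANKL, and 11.25, 11.22 and 11.21 in control. Its 3 groups formed separate steps, and it was 1.44-fold higher with rmCst6 than with RANKL alone (log2 0.53, SE 0.051, limma adjusted p = 1.03e-06).

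Psma3, in the same ring, had 11.80, 11.89 and 12.01 with RANKL plus rmCst6, 12.02, 11.99 and 12.04 with RANKL, and 11.14, 11.08 and 11.11 in control. The groups with and without rmCst6 overlapped, and their log2 difference was -0.11 (95% interval -0.23 to 0.00, limma adjusted p = 0.0717). That difference passed the test under quantile normalization (limma adjusted p = 0.0135) and without RANKL plus rmCst6 replicate 3 (limma adjusted p = 0.00949). Psma1 had 12.12, 12.15 and 12.25 with RANKL plus rmCst6, 11.66, 11.75 and 11.69 with RANKL, and 11.47, 11.48 and 11.51 in control. The groups did not overlap, and its rise with RANKL, the smallest of the ring (log2 0.22, limma adjusted p = 0.00120), no longer passed under median centring (log2 0.11, limma adjusted p = 0.0605). Psma8, the alpha subunit of testis, was expressed at a low level, 28.3 ± 6.66 normalized units per kilobase of transcript with RANKL plus rmCst6, 27.6 ± 4.49 with RANKL and 16.5 ± 4.94 in control (SD, n = 3 each). The other 7 alpha genes averaged between 776 (Psma3) and 2527 (Psma7) in control.

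The 4 structural beta subunits, which complete the inner rings without a peptidase site, rose with RANKL, by log2 values of 0.18 (Psmb1) to 0.86 (Psmb3). With rmCst6, Psmb2 and Psmb4 rose over RANKL alone (log2 0.34 and 0.17) and Psmb1 and Psmb3 did not pass the test (log2 0.10 and 0.01). Of all genes, 36.6% rose with RANKL over control and 34.8% with rmCst6 over RANKL alone. Psmb3 had 11.04, 10.97 and 11.19 with RANKL plus rmCst6, 11.09, 11.03 and 11.04 with RANKL, and 10.18, 10.26 and 10.14 in control. The RANKL libraries lay within the range of those with rmCst6, and both groups lay above control. Psmb2 had 11.52, 11.51 and 11.69 with RANKL plus rmCst6, 11.24, 11.31 and 11.16 with RANKL, and 10.73, 10.82 and 10.77 in control, again in separate steps. Psmb1 had 11.66, 11.70 and 11.78 with RANKL plus rmCst6, 11.60, 11.64 and 11.60 with RANKL, and 11.47, 11.47 and 11.35 in control, with no overlap. Under median centring, it lost its rise with RANKL (log2 0.07, limma adjusted p = 0.186) and gained a rise with rmCst6 (log2 0.14, limma adjusted p = 0.0247).

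Psmb10, the interferon-induced subunit that takes the place of Psmb7, had another order of groups. The gene lies on the minus strand at chr8:105935735-105938444 (GRCm38, GENCODE M21). Its log2 values were 12.46, 12.47 and 12.68 with RANKL plus rmCst6, 10.97, 10.87 and 10.92 with RANKL, and 11.04, 11.04 and 10.94 in control. The libraries with rmCst6 stood apart and the RANKL and control libraries overlapped. Psmb10 was 3.07-fold higher when rmCst6 was added to RANKL (log2 1.62, SE 0.062, limma adjusted p = 1.25e-10), whereas RANKL and control differed by -0.08 (95% interval -0.22 to 0.05, limma adjusted p = 0.237). Under median centring that difference was -0.19 and passed the test (limma adjusted p = 0.0113). Psmb8 and Psmb9, the companions of Psmb10 in the immunoproteasome, had log2 fold changes of 2.17 and 2.30 with rmCst6 over RANKL alone and did not pass the test for RANKL against control (limma adjusted p = 0.779 and 0.0694). The thymic subunit Psmb11 was expressed at a low level, 11.5 ± 1.56 normalized units per kilobase with RANKL plus rmCst6, 9.01 ± 1.17 with RANKL and 14.8 ± 3.16 in control (SD, n = 3 each). Its fall with RANKL (log2 -0.68, limma adjusted p = 0.0147) was lost without control replicate 1 or control replicate 3 (limma adjusted p = 0.0521 and 0.0613).

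The difference between Psmb10 and Psmb7 was also taken within each library, as a description without a test. The log2 value of Psmb10 minus that of Psmb7 was 0.90, 0.84 and 1.03 with RANKL plus rmCst6, -0.85, -0.94 and -0.86 with RANKL, and 0.42, 0.40 and 0.32 in control. The 3 groups did not overlap. Per kilobase of transcript, Psmb10 had 4551 ± 402 normalized units and Psmb7 2709 ± 85.7 with RANKL plus rmCst6 (SD, n = 3). With RANKL the values were 1479 ± 53.1 for Psmb10 and 3083 ± 42.3 for Psmb7, and in control they were 1568 ± 58.3 for Psmb10 and 1360 ± 8.37 for Psmb7. On this scale Psmb10 was the lower of the pair in the RANKL libraries and the higher in the other groups. The size of a gap between the genes depends on the transcript lengths used, 1311 bases for Psmb10 and 1160 for Psmb7. Psmb8 minus Psmb5 averaged 1.77 ± 0.05 with RANKL plus rmCst6, -0.68 ± 0.07 with RANKL and 0.61 ± 0.06 in control, and Psmb9 minus Psmb6 averaged 0.06 ± 0.02 with RANKL plus rmCst6, -2.46 ± 0.10 with RANKL and -1.13 ± 0.09 in control (log2, SD, n = 3 each). Both pairs had the order of groups of Psmb10 and Psmb7.

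**Figure D2:**
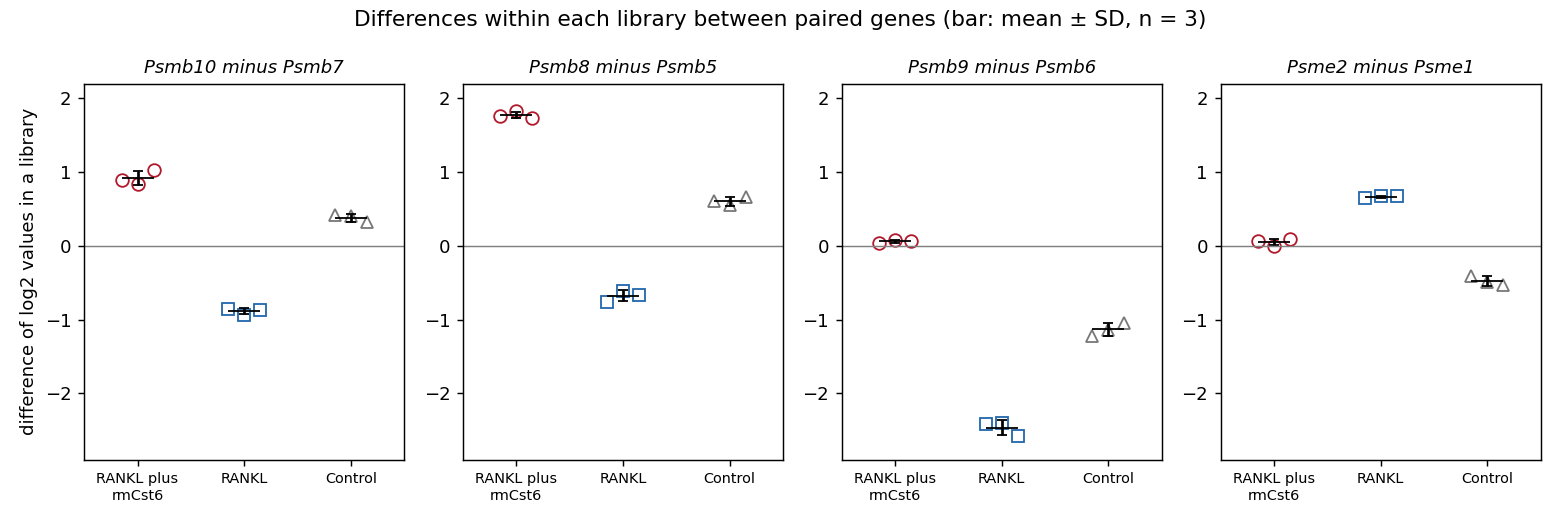
Difference of log2 values between 2 genes in the same library, for the interferon-induced catalytic subunits and the constitutive subunits they replace, and for both PA28 subunits. Points are libraries and bars the mean ± SD (n = 3). Values are not per length, so the shift between groups is what can be read, and Psmb10 minus Psmb7 averages 0.92 with RANKL plus rmCst6, -0.88 with RANKL and 0.38 in control.

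Among the activators, the PA28 genes Psme1 and Psme2 rose with rmCst6 over RANKL alone. Psme1, the PA28 alpha subunit, had log2 values of 12.87, 13.00 and 13.05 with RANKL plus rmCst6, 11.40, 11.45 and 11.33 with RANKL, and 11.70, 11.68 and 11.59 in control. The libraries with rmCst6 were the highest, and RANKL lay below control without overlap. Psme1 was 2.99-fold higher with rmCst6 than with RANKL alone (log2 1.58, SE 0.056, limma adjusted p = 5.83e-11) and fell with RANKL to 0.837 of the control level (log2 -0.26, SE 0.056, limma adjusted p = 0.00114). The gene lies on the plus strand at chr14:55578123-55581529 (GRCm38, GENCODE M21), and its exons overlap those of Emc9 on the opposite strand.

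Psme2, the PA28 beta subunit that pairs with Psme1 in the same ring, had 12.94, 13.00 and 13.14 with RANKL plus rmCst6, 12.05, 12.13 and 12.01 with RANKL, and 11.29, 11.19 and 11.05 in control. Its groups formed separate steps, and it rose 1.85-fold with RANKL over control (log2 0.89, SE 0.067, limma adjusted p = 1.18e-07) and 1.95-fold with rmCst6 over RANKL alone (log2 0.97, SE 0.067, limma adjusted p = 4.27e-08). The gene lies near Psme1 on the minus strand at chr14:55587441-55591113. Within libraries, Psme2 minus Psme1 averaged 0.05 ± 0.05 with RANKL plus rmCst6, 0.67 ± 0.02 with RANKL and -0.48 ± 0.07 in control on the log2 scale (SD, n = 3 each). This difference was highest with RANKL and lowest in control, without overlap.

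Psme2b, a near-identical copy of Psme2 on the minus strand at chr11:48945354-48946190, was singled out after its values were seen. It had 9.87, 10.19 and 10.18 with RANKL plus rmCst6, 7.19, 7.32 and 7.73 with RANKL, and 8.83, 8.67 and 8.74 in control. Its groups did not overlap, and it was 6.35-fold higher with rmCst6 than with RANKL alone (log2 2.67, SE 0.134, limma adjusted p = 1.73e-09) and 2.52 times lower with RANKL than in control (log2 -1.33, limma adjusted p = 1.59e-06). Its values are uncertain, because reads from the copies can be assigned to either and its exon overlaps 9930111J21Rik1 on the same strand. Psme2b held 11.5% of the summed value of the pair with RANKL plus rmCst6, 3.87% with RANKL and 15.6% in control. The summed pair differed by 1.09 on the log2 scale between RANKL plus rmCst6 and RANKL, and by 0.70 between RANKL and control, against 0.97 and 0.89 for Psme2 alone.

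Psme3 forms the nuclear PA28 gamma ring, and Psme4 encodes PA200, an activator of the nucleus and of male germ cells. Psme3 had 11.75, 11.69 and 11.71 with RANKL plus rmCst6, 11.50, 11.59 and 11.52 with RANKL, and 10.80, 10.96 and 10.91 in control. It rose with RANKL (log2 0.65, SE 0.051, limma adjusted p = 1.73e-07) and, by a smaller step, with rmCst6 over RANKL alone (log2 0.18, limma adjusted p = 0.00688), with no overlap between groups. Psme4 had 12.38, 12.42 and 12.50 with RANKL plus rmCst6, 12.18, 12.14 and 12.10 with RANKL, and 12.24, 12.11 and 12.26 in control. The RANKL and control libraries overlapped (log2 difference -0.06, 95% interval -0.17 to 0.05, limma adjusted p = 0.274), and Psme4 rose with rmCst6 over RANKL alone (log2 0.29, limma adjusted p = 2.10e-04). Under median centring, Psme4 was lower with RANKL than in control (log2 -0.17, limma adjusted p = 0.0104).

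Psmf1 encodes PI31, a protein that blocks the core particle in vitro. Its log2 values were 10.14, 10.04 and 10.08 with RANKL plus rmCst6, 9.66, 9.61 and 9.53 with RANKL, and 9.42, 9.59 and 9.56 in control. It was 1.40-fold higher with rmCst6 than with RANKL alone (log2 0.49, SE 0.067, limma adjusted p = 2.43e-05), and RANKL and control overlapped (log2 difference 0.08, 95% interval -0.07 to 0.22, limma adjusted p = 0.322). Under median centring the difference between RANKL and control turned to -0.03, without passing the test.

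**Figure D3:**
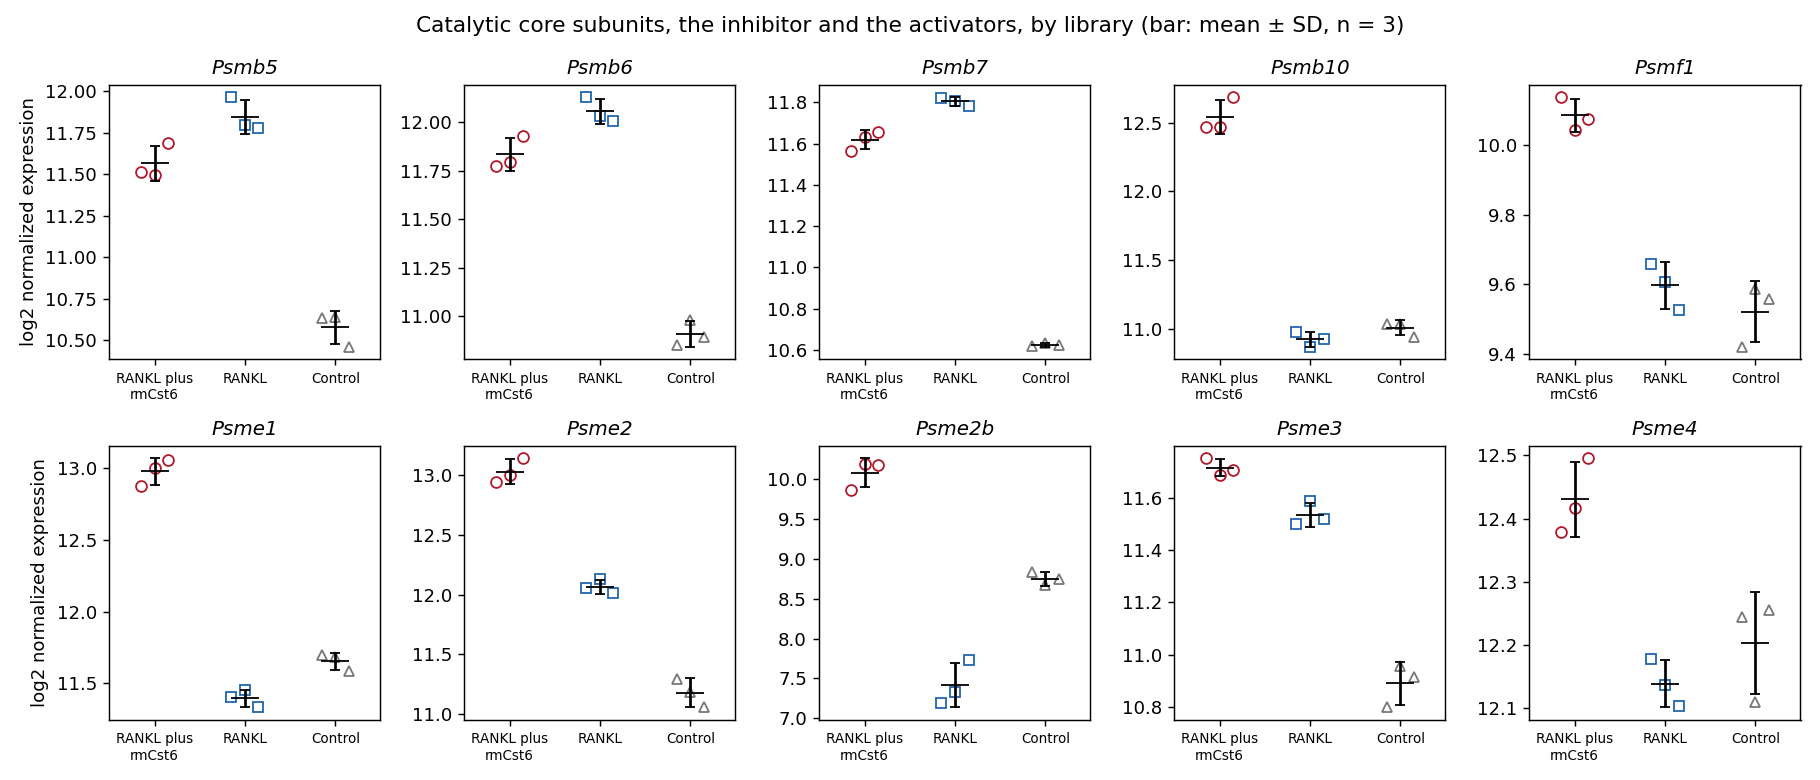
Log2 normalized expression of the constitutive catalytic subunits, Psmb10, the inhibitor Psmf1 and the activators in each of 9 libraries, with the mean ± SD (n = 3) as bars. Each panel has its own axis, which does not start at 0. Psmb5, Psmb6 and Psmb7 are highest in the RANKL libraries, and Psmb10, Psme1, Psme2, Psme2b, Psme3, Psme4 and Psmf1 are highest in the libraries with RANKL plus rmCst6.

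The interferon-stimulated response element, whose core GAAANNGAA was searched in the same windows, is bound by interferon regulatory factors. The Psme1 window is shown because this gene had the largest rise with rmCst6 among the members with a match. It lies on the plus strand at chr14:55578374-55578523 (GRCm38.p6, RefSeq), covers the same span as the windows above, and has the match, on its opposite strand, in capitals. The match lies after the RefSeq transcript start, from base 11 to base 19. The whole window lies within the GENCODE span of the gene given above.
Psme1: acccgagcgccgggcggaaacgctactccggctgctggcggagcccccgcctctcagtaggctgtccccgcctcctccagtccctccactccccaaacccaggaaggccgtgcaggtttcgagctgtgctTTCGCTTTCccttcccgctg
The core was found in 7 of 45 member windows (15.6%), against 8.56% of all windows. Those genes were Psmb3, Psmb4, Psmc2, Psmd4, Psmd9, Psme1 and Psmg4, and Psmb3 did not pass the test with rmCst6. Psmb10, Psme2 and Psme2b, which also rose with rmCst6, were not among them. Only 41 of the 49 members had a window, so a gene not listed either held no match or had no window to search. The gamma activated sequence TTCNNNGAA was found in 2 windows (4.44%), those of Psmd2 and Psmg1, against 8.3% of all windows. Both of these genes fell with rmCst6. Of all 49 members, 26 rose and 13 fell in that comparison. The matches describe the sequence only, and a link to the changes in expression was not tested.

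In the base, most ATPases rose with rmCst6 while the large scaffold subunits fell. Of the 6 ATPases that form the unfolding ring, 5 rose with RANKL over control, against 36.6% of all genes. With rmCst6 over RANKL alone, 4 rose and 1 fell, against 34.8% and 38% of all genes. Psmc5 had 11.45, 11.41 and 11.53 with RANKL plus rmCst6, 11.11, 11.05 and 10.94 with RANKL, and 10.37, 10.33 and 10.34 in control. It made the largest step of the ring in both comparisons (log2 0.43 with rmCst6, limma adjusted p = 1.45e-05, and 0.69 with RANKL, limma adjusted p = 1.90e-07). Psmc1 had 12.09, 12.10 and 12.20 with RANKL plus rmCst6, 11.82, 11.75 and 11.72 with RANKL, and 11.66, 11.68 and 11.65 in control. It rose with rmCst6 (log2 0.37, limma adjusted p = 1.05e-05), and its difference of 0.10 between RANKL and control did not pass the test (limma adjusted p = 0.0676) except under quantile normalization (limma adjusted p = 0.0349).

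Psmc3 was the ATPase that fell. It had 11.60, 11.61 and 11.70 with RANKL plus rmCst6, 11.88, 11.76 and 11.78 with RANKL, and 11.30, 11.28 and 11.31 in control, with no overlap (log2 -0.17 with rmCst6, limma adjusted p = 0.00656). Its exons overlap those of Slc39a13 on the opposite strand. Psmc2 and Psmc6 rose with rmCst6 by 0.40 and 0.26 on the log2 scale, and Psmc4 did not pass the test (log2 0.05).

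Psmd1 and Psmd2 are the large scaffolds of the base, which dock ubiquitin-binding proteins. Psmd1 had 12.07, 12.12 and 12.13 with RANKL plus rmCst6, 12.56, 12.52 and 12.48 with RANKL, and 11.82, 11.74 and 11.79 in control. Psmd2 had 13.07, 13.07 and 13.13 with RANKL plus rmCst6, 13.43, 13.34 and 13.33 with RANKL, and 12.41, 12.37 and 12.34 in control. Both peaked in the RANKL libraries without overlap: they rose with RANKL by 0.74 and 1.00 on the log2 scale, and with rmCst6 added Psmd1 fell by 0.42 (limma adjusted p = 1.75e-06) and Psmd2 fell by 0.28 (limma adjusted p = 7.38e-05). Psmd4, a ubiquitin receptor, went the other way with rmCst6. It had 11.55, 11.62 and 11.64 with RANKL plus rmCst6, 11.34, 11.24 and 11.21 with RANKL, and 10.99, 11.04 and 10.84 in control, and rose in both steps without overlap (log2 0.34 with rmCst6, limma adjusted p = 1.79e-04, and 0.31 with RANKL, limma adjusted p = 4.45e-04). Exons of Psmd1 overlap those of Gm21972 on the same strand and Htr2b on the opposite strand, so its values are less certain.

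All 8 lid subunits rose with RANKL, against 36.6% of all genes, by log2 values of 0.50 (Psmd13) to 1.02 (Psmd8), with a median of 0.77. Relative to RANKL alone, 2 lid subunits rose with rmCst6, against 34.8% of all genes, 4 fell, against 38%, and the test was not passed by 2. Psmd8, a scaffold subunit that in yeast joins the lid last, had 13.19, 13.18 and 13.19 with RANKL plus rmCst6, 12.71, 12.67 and 12.67 with RANKL, and 11.66, 11.69 and 11.65 in control. The libraries of a group lay close together (SD 0.01 with RANKL plus rmCst6, 0.02 with RANKL and 0.02 in control), and Psmd8 rose 2.03-fold with RANKL (log2 1.02, SE 0.037, limma adjusted p = 1.37e-10) and 1.41-fold more with rmCst6 (log2 0.50, SE 0.037, limma adjusted p = 8.63e-08).

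Psmd6, another scaffold subunit of the lid, did the reverse of Psmd8 with rmCst6. It had 10.38, 10.39 and 10.33 with RANKL plus rmCst6, 10.94, 10.91 and 10.91 with RANKL, and 10.28, 10.29 and 10.29 in control. It was 1.47 times lower with rmCst6 than with RANKL alone (log2 -0.55, SE 0.046, limma adjusted p = 2.52e-07), and its difference from control was then 0.08 (95% interval -0.02 to 0.18, limma adjusted p = 0.128). Psmd3, Psmd7 and Psmd12 also fell with rmCst6, by 0.18, 0.21 and 0.18 on the log2 scale (limma adjusted p = 0.0307, 0.00563 and 0.0370). The libraries of Psmd3 overlapped, and these genes were not followed singly through the alternative settings. Psmd11 and Psmd13 did not pass the test (log2 -0.13 and 0.08). Psmd13 had 11.40, 11.46 and 11.54 with RANKL plus rmCst6, 11.35, 11.42 and 11.40 with RANKL, and 10.96, 10.96 and 10.75 in control. Its treated groups overlapped each other and lay above control, and its exons overlap those of Sirt3 on the opposite strand.

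Psmd14, the lid enzyme that cuts ubiquitin chains off substrates, had 11.28, 11.36 and 11.37 with RANKL plus rmCst6, 11.18, 11.23 and 11.20 with RANKL, and 10.25, 10.19 and 10.30 in control. It rose with RANKL (1.94-fold, log2 0.96, limma adjusted p = 2.92e-09). Its small rise with rmCst6 (log2 0.13, limma adjusted p = 0.0271) no longer passed under quantile normalization (limma adjusted p = 0.0832), nor without RANKL replicate 1 or 3 (0.0645 and 0.0647) or RANKL plus rmCst6 replicate 2 or 3 (0.0828 and 0.0861).

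The class means followed these counts. The mean log2 value of the 3 constitutive catalytic genes was 11.62, 11.64 and 11.76 with RANKL plus rmCst6, 11.97, 11.88 and 11.86 with RANKL, and 10.70, 10.75 and 10.66 in control. That of the 8 alpha ring genes was 10.98, 11.10 and 11.22 with RANKL plus rmCst6, 10.87, 10.92 and 10.86 with RANKL, and 10.42, 10.42 and 10.30 in control. The RANKL libraries were the highest for the catalytic genes and lay below the libraries with rmCst6 for the alpha ring. The lid means, 11.42, 11.42 and 11.49 with RANKL plus rmCst6, 11.55, 11.51 and 11.49 with RANKL, and 10.78, 10.70 and 10.71 in control, overlapped between both treated groups. Over the 17 base and lid subunits together, 7 rose and 7 fell with rmCst6, and over the 14 constitutive core subunits, which leave out Psma8, 7 rose and 3 fell. Of all genes 34.8% rose and 38% fell in that comparison, so the base and lid counts are near the background.

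**Figure D4:**
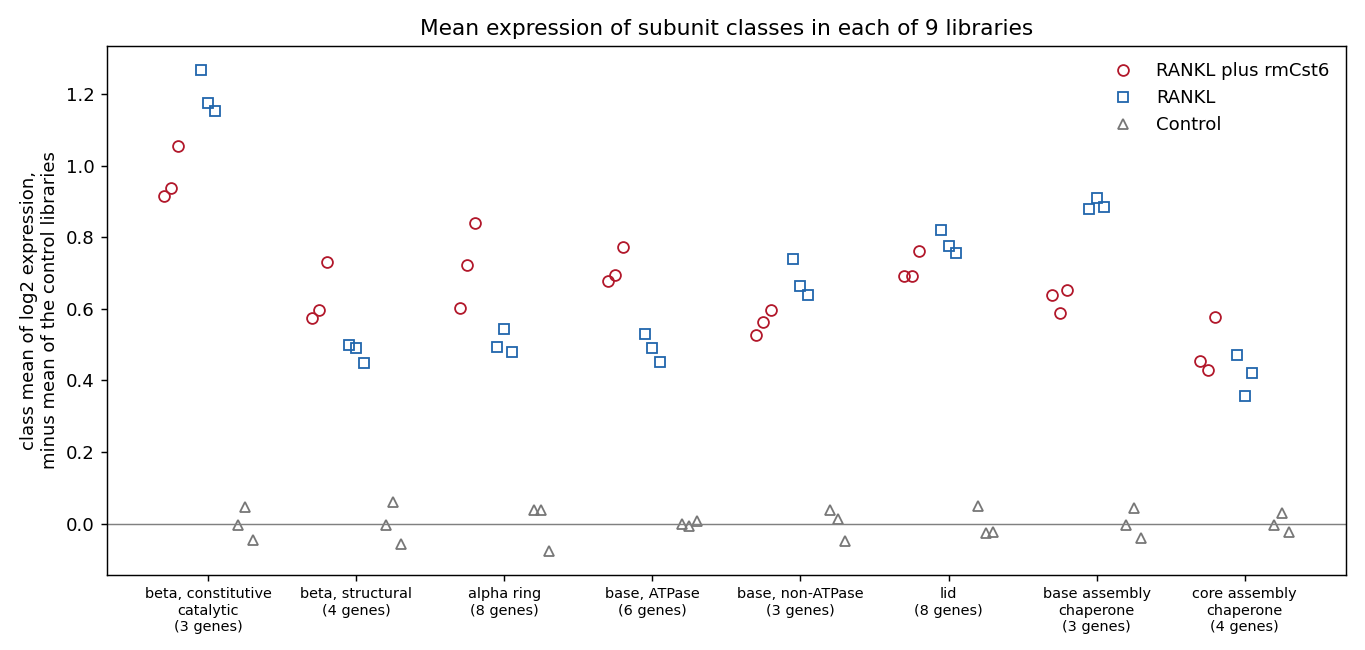
Mean log2 expression of each subunit class in each of 9 libraries, minus the mean of the control libraries for that class. Points are libraries. All RANKL and RANKL plus rmCst6 libraries lie above the control libraries in every class drawn. The RANKL libraries are the highest for the constitutive catalytic genes, the non-ATPase base subunits and the base chaperones, and the RANKL plus rmCst6 libraries for the structural beta subunits, the alpha ring and the ATPases.

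The assembly chaperones, which bind unfinished particles and leave before completion, also moved in both directions with rmCst6. Among those of the base, Psmd10, also known as gankyrin, had 10.41, 10.49 and 10.51 with RANKL plus rmCst6, 10.94, 10.98 and 10.96 with RANKL, and 9.05, 9.15 and 9.17 in control. It had the largest rise with RANKL of all 49 members, 3.57-fold (log2 1.84, SE 0.056, limma adjusted p = 2.71e-11), and fell by 0.49 with rmCst6 (limma adjusted p = 4.85e-06). Psmd5 had 10.26, 9.96 and 10.07 with RANKL plus rmCst6, 10.62, 10.73 and 10.55 with RANKL, and 10.03, 10.25 and 10.03 in control. It rose with RANKL (log2 0.53, limma adjusted p = 1.16e-04) and fell by 0.54 with rmCst6 (limma adjusted p = 9.78e-05), and the libraries with rmCst6 overlapped control. Psmd9 had 9.52, 9.59 and 9.65 with RANKL plus rmCst6, 9.35, 9.29 and 9.41 with RANKL, and 9.18, 9.01 and 8.94 in control. Its rise with rmCst6 (log2 0.24, limma adjusted p = 0.0154) was lost without RANKL replicate 2 or without RANKL plus rmCst6 replicate 3 (limma adjusted p = 0.0568 and 0.0556).

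Among the chaperones of the core, which act as the pairs Psmg1 with Psmg2 and Psmg3 with Psmg4, Psmg1 had 7.87, 7.87 and 8.16 with RANKL plus rmCst6, 8.73, 8.35 and 8.48 with RANKL, and 7.72, 7.47 and 7.71 in control. It rose with RANKL (log2 0.89, SE 0.130, limma adjusted p = 4.93e-05) and fell by 0.55 with rmCst6 (limma adjusted p = 0.00196). Psmg4 had 8.24, 8.00 and 8.03 with RANKL plus rmCst6, 7.49, 7.73 and 7.62 with RANKL, and 8.08, 8.27 and 7.93 in control. It moved opposite to Psmg1, lower with RANKL (log2 -0.48, limma adjusted p = 0.00346) and higher with rmCst6 (log2 0.47, limma adjusted p = 0.00350), with libraries that overlapped control. Psmg3 rose in both steps (log2 0.47 and 0.44), and Psmg2 rose with RANKL (log2 0.79) and did not pass the test with rmCst6 (log2 -0.08).

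The 2 genes that share only the name pattern rose in both steps. Psmc3ip, a partner of the meiotic recombinases, had log2 fold changes of 1.77 with RANKL and 0.96 with rmCst6 over RANKL alone, and a low level in control, 10.3 ± 5.01 normalized units per kilobase (SD, n = 3). It was singled out after its values were seen. Psme3ip1, a protein that binds PA28 gamma, changed by 0.19 with RANKL and 0.36 with rmCst6, with RANKL and control libraries that overlapped.

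Genes that work with the proteasome were counted from lists. Of 19 measured partners, such as shuttle factors and bound deubiquitinases, 13 rose and 1 fell with RANKL, against 36.6% and 35.9% of all genes, and with rmCst6 5 rose, 10 fell and the other 4 missed the threshold, against 34.8% higher and 38% lower of all genes. Usp14, a deubiquitinase on the base, averaged 11.12 ± 0.04 with RANKL plus rmCst6, 11.76 ± 0.05 with RANKL and 10.58 ± 0.05 in control (log2, SD, n = 3 each). It was highest with RANKL (log2 -0.64 with rmCst6, limma adjusted p = 8.60e-08). Zfand5, which stimulates the proteasome, and Ube3c, a ubiquitin ligase on it, also fell with rmCst6 (log2 -1.07 and -0.66). Pomp, the maturation factor of the core, rose in both steps (log2 0.32 with RANKL and 0.39 with rmCst6), and Adrm1, a ubiquitin receptor, rose with RANKL (log2 0.57) and did not pass the test with rmCst6 (log2 0.11, limma adjusted p = 0.161).

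Nfe2l1, which encodes Nrf1, averaged 13.82 ± 0.05 with RANKL plus rmCst6, 12.38 ± 0.01 with RANKL and 12.14 ± 0.04 in control (log2, SD, n = 3 each). It rose with rmCst6 over RANKL alone (log2 1.44, limma adjusted p = 7.63e-12) and with RANKL over control (log2 0.24, limma adjusted p = 1.90e-04). The list of 10 genes of the Nrf1 pathway also takes in Nfe2l2 and Bach1. In that list 3 rose and 6 fell in each of the comparisons of RANKL with control and of rmCst6 with RANKL alone. Of all genes, 36.6% and 34.8% rose in these comparisons and 35.9% and 38% fell. Mafk rose by 1.15 with rmCst6. Vcp, the p97 segregase that extracts ubiquitinated proteins, fell by 1.03 with rmCst6. Of 6 p97 genes, Vcp included, 3 fell, 0 rose and 3 missed the threshold, against 38% lower and 34.8% higher of all genes. Nsfl1c fell by 0.32 and Nploc4 by 0.19. With RANKL, 5 of the 6 p97 genes rose and 1 fell, against 36.6% and 35.9% of all genes. Among 6 genes for ubiquitin and its activating enzymes, 3 rose and 3 fell with rmCst6, against 34.8% and 38% of all genes, and the polyubiquitin gene Ubb rose by 1.16.

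All 12 genes of the interferon and antigen presentation list, which include Psmb8 and Psmb9, rose with rmCst6 over RANKL alone, against 34.8% of all genes, with a median log2 fold change of 2.45. Tap1, the peptide transporter of the endoplasmic reticulum, rose by 3.18 and the class I gene H2-K1 by 3.57. With RANKL over control, 1 of the 12 rose, against 36.6% of all genes, 4 fell, against 35.9%, and the other 7 missed the threshold. Psmb10, Psme1 and Psme2 rose in the same libraries. With rmCst6 over RANKL alone, 11 of the 12 neutrophil markers and the megakaryocyte, endothelial and stromal markers counted above also rose, and their part in the rise of these 3 genes was not tested.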

How the data were processed

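Bulk RNA-Seq of mouse BM macrophages was analysed from 1 table of 13526 genes in 9 libraries. The authors deposited log2 normalized expression, with a pseudocount of 1 judged from the lowest values. The submitters' processing notes name Salmon 1.2.1, DESeq2 and, as genome, GRCm38.p6, with neither order nor role. Libraries were made with a stranded mRNA kit and read from both ends at 100 bases. Library sums on the linear scale, 2.77e+07 to 3.14e+07, follow the authors' normalization and are not read totals. A step worth a single read was sought among the values under 12, but at best 38.0% to 54.8% of them were whole multiples of it (tolerance 0.02). Reads were not recovered, the depth is unknown, and precision rests on the spread of 3 replicates.

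Groups came from the sample labels. Genes with a normalized value of at least 10 in at least 3 libraries were kept (12932). limma 3.58.1 in R 4.3.3 estimated the group means over the 9 libraries together (trend on, robust off), two-sided, with Benjamini-Hochberg adjustment over the genes kept, and calls at an adjusted p under 0.05. The fit was tested on simulated data. Values per kilobase divide linear values by the length of the principal GENCODE M21 transcript, and 13516 gene identifiers matched GENCODE. Promoter windows came from RefSeq, and no window was found for Psmb7. In 42 of 45 windows, bases matched an annotated transcript of the gene, which checks the orientation and not the exact start. The members and gene lists were chosen with earlier results of these data known. Members given with full values were the catalytic, activator and inhibitor genes, the members with the highest and lowest log2 fold change of each other class, and those opposite to most of their class. Other members are given by fold change or count. Genes outside the members were the 3 with the smallest adjusted p in each list, with Psmb8, Psmb9, Nfe2l1, Pomp, Adrm1 and Usp14. Some results on single genes of these lists are withheld for evaluation and not reported here. Alternatives were no filter, a filter at 100, a further 8 added before the log, quantile normalization, median centring, trend off, robust on, a fit to the compared groups alone, a replicate block, an adjusted p under 0.01, and leaving out each library in turn.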

Additional observations from a re-analysis of the deposited data

How the results depend on the processing

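The counts of members that rose or fell stayed within 1.5 times their values under all alternatives run. Leaving out each library in turn gave 39 to 41 members higher and 3 to 4 lower with RANKL against control, 22 to 27 higher and 11 to 14 lower with RANKL plus rmCst6 against RANKL, and 43 to 45 higher and 0 lower with RANKL plus rmCst6 against control. Median centring gave a median of all genes of -0.12 for RANKL against control, against -0.01 as deposited, with 38 members higher and 6 lower. Psme2b was not in the set of genes followed singly through the alternatives, so how its calls held is not given. For the other members given with full values, 1739 values under an alternative kept their side of the threshold. Of the rest, 19 lost their call and 6 gained one, with 0 called values reversed. The sign changed in 11 of these values, over 5 comparisons of a gene that passed the test neither as deposited nor under the alternative. One was Psmf1 for RANKL against control, at a log2 fold change of 0.08 as deposited, -0.03 under median centring and -0.03 under quantile normalization. Of the median log2 fold changes of the subunit classes, 51 moved by more than the spread between replicates, by at most 0.14 and with 0 changes of sign: 22 under median centring, 11 under quantile normalization and 18 with a library left out. The other 543 moved by less. Beyond those given with each gene, Psmg1 lost its call for RANKL plus rmCst6 against control under median centring and quantile normalization (limma adjusted p = 0.0858 and 0.112), and without control replicate 2 or RANKL plus rmCst6 replicate 3 (0.129 and 0.145). The cause was not tested. With the replicate number as a block, the counts were 41 higher and 4 lower with RANKL against control, 26 and 13 with RANKL plus rmCst6 against RANKL, and 45 and 0 against control. Deviations of same-numbered libraries correlated at -0.08 to 0.07 across genes, so no large shared part was seen. These correlations cannot tell whether same-numbered libraries came from the same animal or culture. The depth is unknown, and low genes such as Psma8, Psmb11 and Psmc3ip had the widest intervals.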
